A study of Homo sapiens with 9 samples.

Results

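The genes of the epithelial-mesenchymal transition (EMT) considered here were the transcription factors SNAI1, SNAI2, ZEB1, ZEB2 and TWIST1, the cadherins CDH1, CDH2 and CDH3, the intermediate filament gene VIM and the matrix gene FN1. They were taken by symbol, and each of the 10 genes had 1 transcript cluster among the 21448 clusters measured. The cells were PC9, a human lung adenocarcinoma line, and RNA was hybridised to Clariom S arrays 96 h after transfection with siRNA at 15 nM. There were 3 arrays each for siALKBH5#1 and siALKBH5#3, siRNAs of different sequence that target the RNA demethylase ALKBH5, and for siControl, a non-targeting control named siNC in the study. No group carried any further alteration in the labels, and all groups came from 1 cell line. The labels call the replicates biological but do not describe separate cultures, so the p-values cover the variation among these 9 arrays and nothing beyond it.

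EMT is a programme in which epithelial cells loosen their junctions and take on a motile, matrix-producing form. SNAI, ZEB and TWIST factors drive it, and the SNAI and ZEB proteins bind E-box motifs in promoters such as that of CDH1 and repress them. E-cadherin, the product of CDH1, holds epithelial cells together through catenins. N-cadherin (CDH2), vimentin (VIM) and fibronectin (FN1) mark the mesenchymal state, and lung carcinoma lines often express genes of both states.

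With siALKBH5#3, the mesenchymal genes FN1, VIM and CDH2 rose 10.1-fold, 2.74-fold and 2.67-fold over siControl, whereas CDH1 did not fall. With siALKBH5#1, CDH1 fell 1.69-fold, and FN1, VIM and CDH2 did not pass the test. No member passed the test with both siRNAs, where 3.35% of all clusters did, and 7 of 10 passed with at least 1, where 20.5% of all clusters did. These shares include dim clusters, and a larger share passed each comparison once those were left out. At an unadjusted p under 0.05, SNAI2 (higher with both) and CDH1 (in opposite directions) met both comparisons, and under the methods' t-test with adjustment none did. Of the 5 transcription factors, TWIST1 passed with siALKBH5#1 and SNAI2 with siALKBH5#3, and both calls were lost when single arrays were left out. ZEB1 and ZEB2 were no brighter than genes of a family that cultured cells mostly do not express.

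The 3 members with the largest increases had RefSeq promoter entries (GRCh38.p14), 1 each for FN1 and VIM and 2 for CDH2. The 250 bases upstream of 1 annotated start of each gene are printed, for CDH2 that of the first entry. They show what stands before the genes on which the results turn. FN1 lies at chr2:215360865-215436068 on the minus strand, VIM at chr10:17228241-17237593 on the plus strand and CDH2 at chr18:27932879-28177130 on the minus strand. The printed windows are chr2:215436069-215436318, chr10:17227991-17228240 and chr18:28177131-28177380. Each is written 5′ to 3′ on the strand of the gene, with capitals for a cAMP response element (TGACGTCA) or a GC box (GGGCGG or CCGCCC).
FN1: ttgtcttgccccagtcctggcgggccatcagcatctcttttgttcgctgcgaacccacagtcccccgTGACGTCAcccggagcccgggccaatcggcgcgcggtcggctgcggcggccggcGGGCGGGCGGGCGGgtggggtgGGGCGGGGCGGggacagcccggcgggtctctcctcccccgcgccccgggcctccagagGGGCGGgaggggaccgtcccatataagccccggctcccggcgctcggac
VIM: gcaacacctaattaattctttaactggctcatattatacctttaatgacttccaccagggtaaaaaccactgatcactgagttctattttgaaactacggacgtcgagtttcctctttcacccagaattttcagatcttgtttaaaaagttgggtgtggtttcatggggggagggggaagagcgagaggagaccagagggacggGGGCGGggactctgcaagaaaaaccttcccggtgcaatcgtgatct
CDH2: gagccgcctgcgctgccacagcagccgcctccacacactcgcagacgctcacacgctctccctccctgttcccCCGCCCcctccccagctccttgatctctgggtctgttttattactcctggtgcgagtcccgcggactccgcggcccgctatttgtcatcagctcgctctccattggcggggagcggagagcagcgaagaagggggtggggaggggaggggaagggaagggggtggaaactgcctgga

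The FN1 window held 1 cAMP response element, whose first base stood at -183 from the start site, and 6 GC boxes between -129 and -49, of which neighbours overlapped in the runs of repeated letters. The VIM window held 1 GC box at -46, and the CDH2 window 1 at -177. Neither strand of these windows held the E-box letters CACCTG or CAGGTG, nor the AP-1 element TGAGTCA or TGACTCA. Of 35116 RefSeq promoter windows of the same length, 1.65% held the cAMP response element, 42.6% a GC box, 17.5% an E-box and 4.2% an AP-1 element, so the GC box was common and the cAMP response element was not. These matches describe letters and not bound sites. ZEB1 had 7 such entries and ZEB2 had 1. SNAI1, SNAI2, TWIST1, CDH1 and CDH3 are named only.

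ALKBH5 was examined first as a check of the labels. Its intensity was 112, 96.7 and 113 on the siALKBH5#1 arrays, 56.8, 30.0 and 34.8 on the siALKBH5#3 arrays, and 2815, 3308 and 2361 on the siControl arrays. Every siRNA array lay far below every siControl array, and 2 of the 3 siALKBH5#3 arrays were as dim as the background set described next. Between the siRNAs the fit gave 2.74-fold less ALKBH5 signal with siALKBH5#3 (adjusted p = 0.000487, limma), which did not pass under the methods' t-test with adjustment (adjusted p = 0.0543), and its size is uncertain at so dim a signal.

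Intensities here are RMA values on a linear scale, which can be compared between arrays for 1 gene but not between genes. Since no detection calls were used, 348 clusters of olfactory receptors, a family not expected in a lung line, served as a guide to dim signal, and their 95th percentile was 38.4 to 50.2 on the 9 arrays. ZEB1 and ZEB2 were at or below it on all 9 arrays, TWIST1 was above it on 8 arrays, and the other 7 members were above it on all 9. The median intensity of all clusters was 102.7 to 105.2 per array. Array pairs of the same group had a Pearson's r of 0.994 to 0.997 over the log2 values of all clusters, and pairs from different groups 0.988 to 0.993. The epithelial markers EPCAM, KRT8, KRT18 and KRT19 stood at the 99.2 to 99.9 percentile of the clusters on every array, and CDH1 at 89.1 to 95.8. Of the lung adenocarcinoma markers, NKX2-1 and NAPSA were above the olfactory guide on 3 and 0 arrays, and EGFR on all 9.

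SNAI1, the zinc finger repressor often placed at the onset of EMT, had intensities of 88.9, 93.7 and 109 with siALKBH5#1, of 106, 82.5 and 95.4 with siALKBH5#3, and of 85.7, 86.4 and 86.1 with siControl. The siALKBH5#1 arrays lay just above the siControl arrays, and the siALKBH5#3 arrays overlapped them. The log2 fold change over siControl was 0.17 ± 0.13 (SE) with siALKBH5#1 and 0.13 ± 0.13 with siALKBH5#3, and neither passed the test (adjusted p = 0.476 and 0.557, limma).

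SNAI2, which encodes the related repressor SLUG, read 2356, 2465 and 2256 with siALKBH5#1, 2748, 2511 and 2399 with siALKBH5#3, and 2067, 1870 and 1969 with siControl. All 6 siRNA arrays lay above all 3 siControl arrays, by a small margin. With siALKBH5#3, SNAI2 rose 1.30-fold (95% interval 1.10 to 1.53, adjusted p = 0.0405, limma), and its 1.20-fold difference with siALKBH5#1 did not pass (1.01 to 1.42, adjusted p = 0.182). The call did not survive the loss of any single array of the 9, with adjusted p between 0.0518 and 0.131.

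TWIST1, a basic helix-loop-helix factor that promotes EMT, read 98.8, 73.9 and 124 with siALKBH5#1, 74.2, 80.0 and 65.2 with siALKBH5#3, and 49.4, 74.8 and 44.8 with siControl. The second siControl array lay above the second siALKBH5#1 array, so the groups overlapped. On siControl arrays 1 and 3 TWIST1 stood near the olfactory guide of the same arrays, 47.6 and 50.2, so the size of a change over siControl is uncertain. The fit gave a 1.76-fold increase with siALKBH5#1 (interval 1.27 to 2.44, adjusted p = 0.0379, limma), and a 1.33-fold difference with siALKBH5#3 that did not pass (0.96 to 1.84, adjusted p = 0.233). The call was lost without siALKBH5#1 replicate 1 or 3, siControl replicate 1 or 3, or any of the 3 siALKBH5#3 arrays, which enter only through the shared spread (adjusted p between 0.0511 and 0.134).

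ZEB1 and ZEB2 encode paired zinc finger and homeodomain repressors of CDH1. ZEB1 read 26.3, 17.7 and 19.9 with siALKBH5#1, 19.2, 15.7 and 15.3 with siALKBH5#3, and 14.7, 18.8 and 31.6 with siControl. ZEB2 read 13.6, 15.4 and 13.8 with siALKBH5#1, 21.9, 16.3 and 16.9 with siALKBH5#3, and 17.2, 13.9 and 16.8 with siControl. The siControl arrays overlapped those of each siRNA for both genes, and no comparison passed (adjusted p 0.113 to 0.962 over both genes and all comparisons, limma). For ZEB2 the siALKBH5#3 arrays lay above the siALKBH5#1 arrays (log2 difference 0.36, interval 0.04 to 0.67, adjusted p = 0.113, limma). At such dim intensities the size of any change was not determined.

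**Figure D1:**
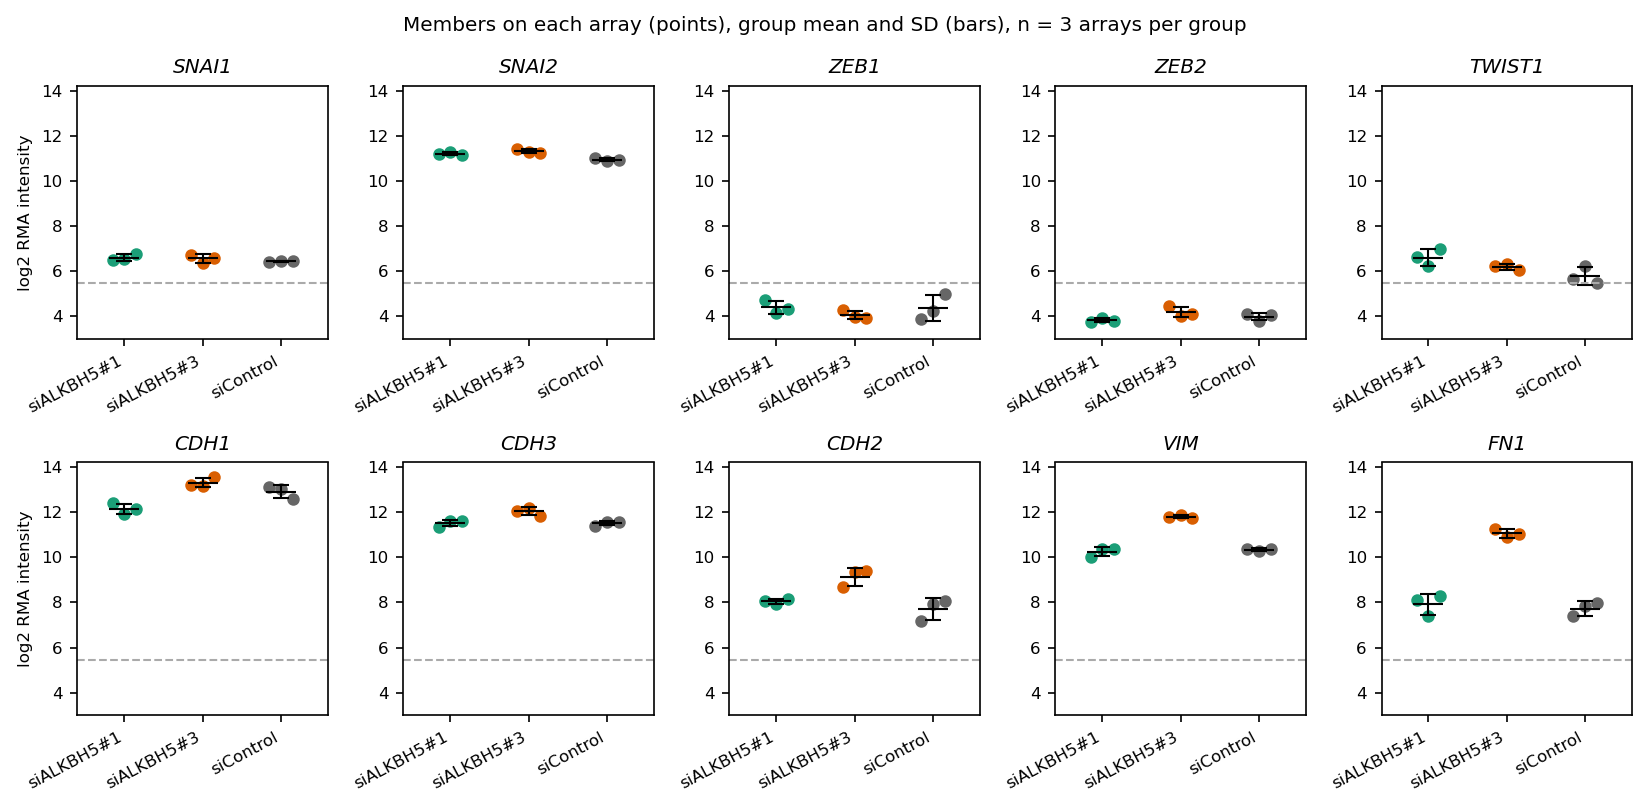
RMA intensity on the log2 scale (vertical axis) of the 10 members on each of the 9 arrays (points) by group, with the group mean and SD (bars, n = 3). The dashed line is the mean over arrays of the 95th percentile of olfactory receptor clusters. FN1, VIM and CDH2 stand higher on the siALKBH5#3 arrays than on all other arrays, CDH1 stands lowest with siALKBH5#1, and ZEB1 and ZEB2 lie under the line.

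CDH1, which encodes E-cadherin (chr16:68737292-68835537), read 5368, 3836 and 4490 with siALKBH5#1, 9334, 9264 and 12053 with siALKBH5#3, and 8870, 8329 and 6063 with siControl. The siALKBH5#1 arrays were the 3 lowest and the siALKBH5#3 arrays the 3 highest, with siControl between them. CDH1 fell 1.69-fold with siALKBH5#1 (interval 1.29 to 2.22, adjusted p = 0.0233, limma). With siALKBH5#3 it was 1.33-fold higher than with siControl and did not pass (1.01 to 1.74, adjusted p = 0.154), although it passed with an intensity trend and a robust prior in the fit (adjusted p = 0.0434). The call with siALKBH5#1 depended on 4 arrays. It was lost when siALKBH5#1 replicate 2 (adjusted p = 0.0918), siALKBH5#1 replicate 3 (0.0713), siControl replicate 1 (0.0822) or siControl replicate 2 (0.0762) was left out.

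CDH3 encodes P-cadherin, a classical cadherin of basal epithelia, and lies 3520 bases before CDH1 on chromosome 16 (chr16:68645310-68733771). It read 2633, 3103 and 3076 with siALKBH5#1, 4304, 4720 and 3660 with siALKBH5#3, and 2704, 3047 and 3045 with siControl. Only the siALKBH5#3 arrays stood apart. CDH3 rose 1.44-fold with siALKBH5#3 (interval 1.18 to 1.75, adjusted p = 0.0184, limma) and showed a log2 difference of 0.00 ± 0.13 (SE) with siALKBH5#1 (adjusted p = 0.998). The call with siALKBH5#3 was lost without siALKBH5#3 replicate 1 or 2 or siControl replicate 1 (adjusted p = 0.0569, 0.0836 and 0.0642).

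CDH2, which encodes N-cadherin, read 267, 245 and 284 with siALKBH5#1, 406, 653 and 677 with siALKBH5#3, and 143, 246 and 269 with siControl. The first siControl array was the lowest of all and the first siALKBH5#3 array the lowest of its group, and all siALKBH5#3 arrays still lay above the rest. CDH2 rose 2.67-fold with siALKBH5#3 (interval 1.85 to 3.84, adjusted p = 0.00202, limma). With siALKBH5#1 the fold was 1.25 and did not pass (0.87 to 1.80, adjusted p = 0.467). The increase with siALKBH5#3 passed with any single array left out, but not under the methods' t-test after Benjamini-Hochberg adjustment, which uses the spread of these groups alone (adjusted p = 0.125).

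VIM, the intermediate filament gene of mesenchymal cells, read 1037, 1306 and 1324 with siALKBH5#1, 3533, 3749 and 3416 with siALKBH5#3, and 1328, 1245 and 1327 with siControl. The siALKBH5#3 arrays formed a tight, separate group, and the siALKBH5#1 arrays overlapped siControl. VIM rose 2.74-fold with siALKBH5#3 (interval 2.27 to 3.31, adjusted p = 2.8e-05, limma). With siALKBH5#1 the log2 difference was -0.10 ± 0.12 (SE, adjusted p = 0.696), and the interval, -0.37 to 0.18, did not reach the size seen with siALKBH5#3.

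FN1, the gene of the matrix glycoprotein fibronectin, read 277, 168 and 308 with siALKBH5#1, 2444, 1903 and 2086 with siALKBH5#3, and 166, 227 and 253 with siControl. The lowest siALKBH5#3 array was several times brighter than the highest array of any other group. FN1 rose 10.1-fold with siALKBH5#3 (interval 7.18 to 14.1, adjusted p = 5.75e-06, limma), by far the largest change among the members. With siALKBH5#1 the fold was 1.15 and did not pass (0.82 to 1.61, adjusted p = 0.653). In bulk RNA, more cells that express a gene and more RNA per cell cannot be told apart.

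Counted together, 2 of 10 members passed with siALKBH5#1 against siControl, 1 higher and 1 lower, where 8.07% of all clusters passed, 4.51% as higher and 3.56% as lower. With siALKBH5#3 against siControl, 5 of 10 passed, all higher, where 15.8% of all clusters passed, 8.72% as higher and 7.04% as lower. These shares include dim clusters, whereas most members were above the olfactory guide. With dim clusters left out, 2348 of 13738 clusters passed with siALKBH5#1 and 4037 with siALKBH5#3, which are larger shares. The median log2 fold change of the members was 0.10 with siALKBH5#1 and 0.41 with siALKBH5#3, beside -0.01 and -0.02 over all clusters. The groups did not overlap for 3 members with siALKBH5#1 and 6 with siALKBH5#3, where 26.9% and 32.7% of all clusters did not overlap. Both comparisons share the 3 siControl arrays. Under the methods' t-test with Benjamini-Hochberg adjustment, FN1 and VIM alone passed with siALKBH5#3 and 0 members with siALKBH5#1, where TWIST1 had an adjusted p of 0.297 and CDH1 of 0.21, while 2 members were higher and 1 lower at an unadjusted p under 0.05 by limma.

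**Figure D2:**
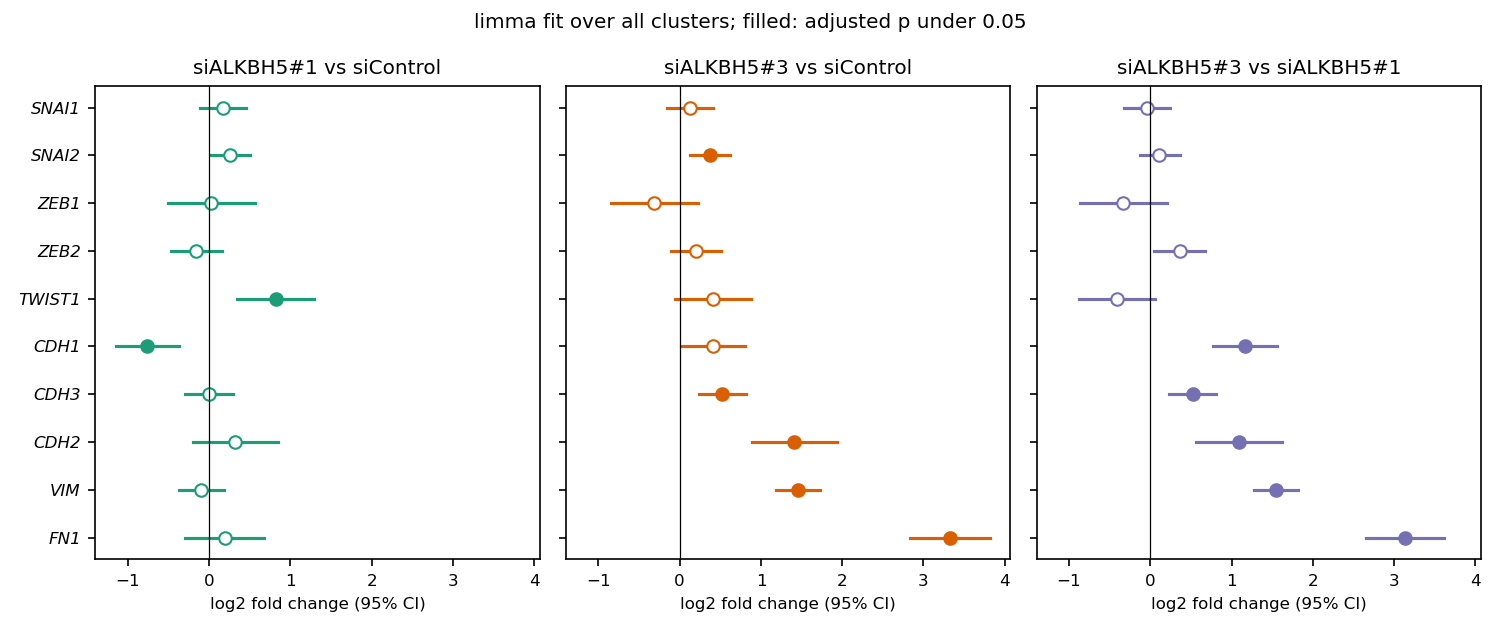
Log2 fold change (horizontal axis) of each member with its 95% confidence interval in the 3 comparisons. Filled points passed at an adjusted p under 0.05 over all clusters. With siALKBH5#3, FN1 stands at 3.33, VIM at 1.46 and CDH2 at 1.41, and with siALKBH5#1 CDH1 stands at -0.76.

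The siRNAs were also set against each other, which tests whether their effects differ. The siControl arrays enter this comparison only through the shared spread. Between siALKBH5#3 and siALKBH5#1, 5 of 10 members passed, all higher with siALKBH5#3, where 19.1% of all clusters passed and 9.55% passed as higher. With dim clusters left out, 4727 of 13738 clusters passed, a larger share. FN1 was 8.78-fold higher (interval 6.27 to 12.3, adjusted p = 2.29e-06, limma) and VIM 2.93-fold higher (2.43 to 3.54, adjusted p = 5.83e-06). CDH1 was 2.24-fold higher (1.71 to 2.94, adjusted p = 0.000682) and CDH2 2.13-fold higher (1.48 to 3.07, adjusted p = 0.00696). CDH3 was 1.44-fold higher (1.18 to 1.75, adjusted p = 0.0148), a call lost without siALKBH5#1 replicate 1 or siALKBH5#3 replicate 2 (adjusted p = 0.0664 and 0.0711). The groups did not overlap for 6 members, where 36.1% of all clusters did not overlap. CDH2 and CDH3 missed the threshold under the methods' t-test with adjustment (adjusted p = 0.0709 and 0.0897). The epithelial CDH1 and the mesenchymal FN1, VIM and CDH2 were thus all higher with the same siRNA. None of the 5 transcription factors passed here, and the largest of their differences was -0.41 ± 0.21 (SE) on the log2 scale for TWIST1 (adjusted p = 0.237).

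**Figure D3:**
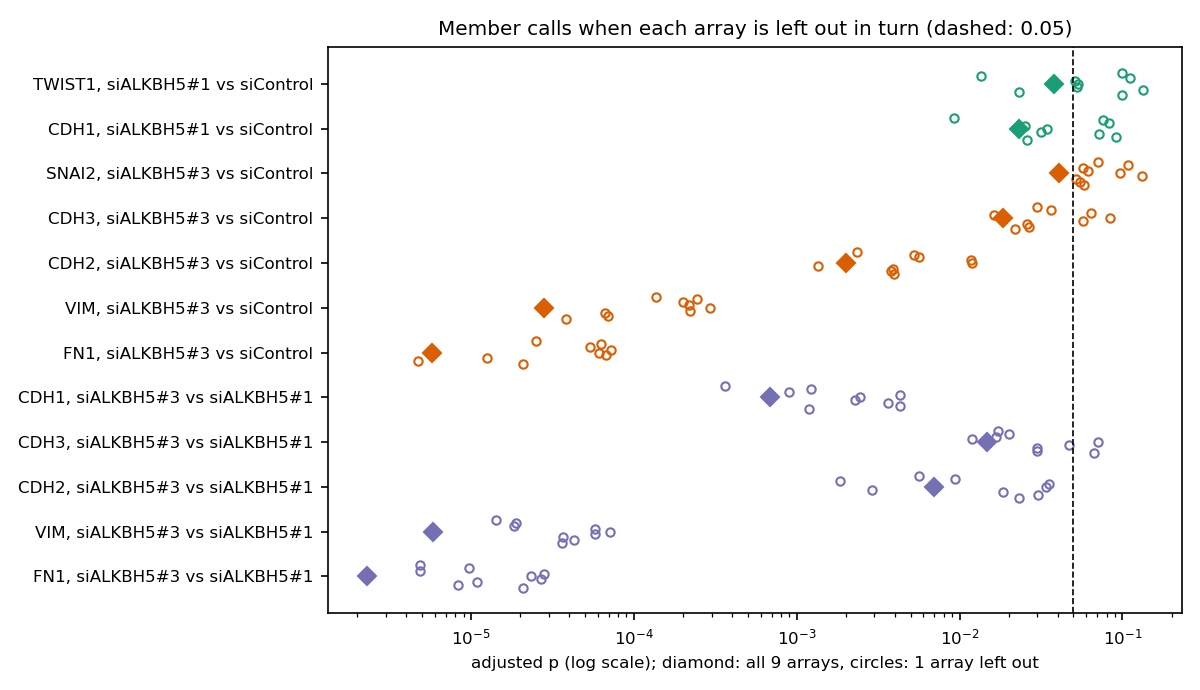
Adjusted p (horizontal axis, log scale) of each member call with all 9 arrays (diamonds) and with each array left out in turn (circles), with a dashed line at 0.05. FN1, VIM and CDH2 stay left of the line throughout, as does CDH1 between the siRNAs, whereas TWIST1 and CDH1 with siALKBH5#1, SNAI2 with siALKBH5#3 and CDH3 in both of its comparisons cross it.

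Over the 9 arrays the log2 levels of VIM and FN1 followed each other (Pearson's r = 0.96), as did those of VIM and CDH3 (0.93) and of CDH2 and FN1 (0.89). CDH1 followed FN1 less closely, at 0.66. The 9 arrays form 3 groups, so these values mostly repeat the group means. Among all clusters with 1 symbol, the levels most like those of VIM belonged to PTGS2 (0.993), which encodes cyclooxygenase-2, those most like FN1 to MTF1 (0.991), a metal-responsive transcription factor, and those most like CDH1 to FXR1 (0.986), an RNA-binding protein.

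Genes of related function were described in 8 lists, by counts and medians of the same fit. Over all clusters, 8.07% passed with siALKBH5#1, 4.51% as higher and 3.56% as lower. With siALKBH5#3, 15.8% passed, 8.72% as higher and 7.04% as lower. The methods' t-test with adjustment passed far fewer, 324 of 21448 clusters with siALKBH5#1 and 1302 with siALKBH5#3. List counts under that test, also those of 0, are to be read beside these totals. Of 13 other EMT transcription factors measured, 3 passed as higher and 3 as lower with siALKBH5#1, and 4 and 2 with siALKBH5#3. HMGA2, a chromatin protein that promotes EMT, had mean intensities of 317 ± 42.2 with siALKBH5#1, 205 ± 7.65 with siALKBH5#3 and 94.3 ± 5.12 with siControl (SD, n = 3). It rose with both siRNAs, by 1.74 ± 0.13 and 1.12 ± 0.13 on the log2 scale (SE, adjusted p = 1.26e-05 and 0.000135, limma). SOX4, a factor of the SOX family linked to EMT, fell with siALKBH5#1 by 1.04 ± 0.15 (adjusted p = 0.00146) and read 0.33 ± 0.15 with siALKBH5#3, which did not pass (adjusted p = 0.174). SOX9, TCF4 and KLF8, the last named after its values were seen, also passed with both siRNAs, with log2 fold changes of 0.72 and 0.45, -0.53 and -0.66, and -0.47 and -0.48 with siALKBH5#1 and siALKBH5#3. The call of SOX9 with siALKBH5#3 was lost in 8 of the 9 fits with 1 array left out and that of TCF4 with siALKBH5#1 in 7, with adjusted p up to 0.141 and 0.146. TCF4 read 16.4 to 21.8 on the siRNA arrays and 24.9 to 33.3 on the siControl arrays, all within the olfactory guide, so the size of its change was not determined. The methods' t-test with adjustment passed 1 gene of this list as higher and 0 as lower with each siRNA. The falls of SOX4, TCF4 and KLF8 therefore did not pass it.

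Of 17 other cadherins measured, 1 passed with each siRNA, where 8.07% of all clusters passed with siALKBH5#1 and 15.8% with siALKBH5#3. The methods' t-test with adjustment passed 0, and 10 cadherins were at or below the olfactory guide on all arrays. CDH5, the endothelial cadherin, passed as lower with siALKBH5#1 (adjusted p = 0.0107, limma), at intensities of 30.0 to 38.4 with siALKBH5#1 and 49.9 to 77.7 with siControl. All 3 siALKBH5#1 values lay below the guide of their own arrays, so the size of the difference was not determined. Of 11 catenins and adherens junction proteins, which link cadherins to actin, 2 passed as higher and 2 as lower with siALKBH5#1, and 6 as higher and 0 as lower with siALKBH5#3 (1 lower at an unadjusted p under 0.05 by limma, and 1 by the methods' t-test with adjustment). CTNNA1, alpha-catenin, averaged 1991 ± 173 with siALKBH5#3 and 722 ± 135 with siControl (SD, n = 3), an increase of 1.48 ± 0.15 (adjusted p = 7.57e-05). NECTIN3, a cell adhesion molecule of adherens junctions, rose with both siRNAs, by 1.38 ± 0.14 with siALKBH5#1 and 0.93 ± 0.14 with siALKBH5#3 (adjusted p = 0.000105 and 0.000933).

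Of 28 epithelial genes that EMT usually lowers, 0 passed as higher and 3 as lower with siALKBH5#1 (list median -0.19), where 8.07% of all clusters passed. With siALKBH5#3, 6 passed as higher and 4 as lower (median -0.01), where 15.8% of all clusters passed. With siALKBH5#1, 1 gene was higher and 13 were lower at an unadjusted p under 0.05 by limma, and the methods' t-test with adjustment passed 0. The count with siALKBH5#1 lay between 0 and 13 over the alternative settings. The genes that passed with siALKBH5#3 ran both ways by limma, whereas the methods' t-test with adjustment passed 2 as higher and 0 as lower. CLDN1, a tight junction claudin, rose with siALKBH5#3 by 1.06 ± 0.12 (SE, adjusted p = 0.000109, limma), while TJP3, a tight junction scaffold, fell by 1.08 ± 0.20 (adjusted p = 0.00376). MUC1, a membrane mucin, fell with siALKBH5#1 by 1.32 ± 0.21 (adjusted p = 0.00257) and read -0.31 ± 0.21 with siALKBH5#3, which did not pass (adjusted p = 0.371).

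Of 30 mesenchymal matrix and cytoskeleton genes, 5 passed as higher and 6 as lower with siALKBH5#1, where 8.07% of all clusters passed. With siALKBH5#3, 10 passed as higher and 3 as lower, where 15.8% of all clusters passed. THBS1, thrombospondin-1, averaged 11040 ± 772 with siALKBH5#1, 62260 ± 3936 with siALKBH5#3 and 25140 ± 2766 with siControl (SD, n = 3). It fell by 1.18 ± 0.12 with siALKBH5#1 and rose by 1.31 ± 0.12 with siALKBH5#3 (SE, adjusted p = 0.000136 and 4.15e-05, limma). MYL9, TAGLN and TPM1, which encode contractile and actin-binding proteins, also fell with siALKBH5#1, by 1.00, 0.81 and 1.02, and rose with siALKBH5#3, by 1.18, 1.27 and 0.71 (adjusted p between 0.000105 and 0.00526). The opposite held for S100A4, a calcium-binding protein of motile cells, which fell by 1.41 ± 0.15 with siALKBH5#3 (adjusted p = 0.000115) and rose by 0.66 ± 0.15 with siALKBH5#1 (adjusted p = 0.0226). Leaving out siALKBH5#1 replicate 1, siALKBH5#1 replicate 3, siControl replicate 2 or siControl replicate 3 ended that last call (adjusted p between 0.0505 and 0.0864). COL5A1, a fibrillar collagen, rose with siALKBH5#3 by 1.49 ± 0.16 (adjusted p = 0.000107), while LOX, which cross-links collagen, rose with siALKBH5#1 by 1.74 ± 0.23 (adjusted p = 0.000637). The methods' t-test with adjustment passed 0 genes of this list as higher and 4 as lower with siALKBH5#1. Over all 21448 clusters it passed 191 as higher and 133 as lower with that siRNA. The rises of LOX and S100A4 with that siRNA therefore did not pass it. With siALKBH5#3 it passed 7 as higher and 2 as lower.

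Of 13 fibronectin receptors and adhesion adaptors, 1 passed as higher and 3 as lower with siALKBH5#1, where 8.07% of all clusters passed. With siALKBH5#3, 3 passed as higher and 2 as lower, where 15.8% of all clusters passed. The methods' t-test with adjustment passed 0 as higher and 1 as lower with siALKBH5#1, and 3 and 0 with siALKBH5#3. ITGA5, the alpha subunit of the main fibronectin receptor, read 2931, 3053 and 3367 with siALKBH5#3 and 1572, 1404 and 1326 with siControl, an increase of 1.12 ± 0.13 (SE, adjusted p = 0.000167, limma). ITGB6, the beta subunit of an epithelial integrin that binds fibronectin, fell with siALKBH5#1 by 1.25 ± 0.15 (adjusted p = 0.000439). Of 6 vimentin filament partners, 1 passed with each siRNA, and 0 by the methods' t-test with adjustment. Of 10 partners of SNAI1 and ZEB1 in repressor complexes and protein turnover, 0 passed with siALKBH5#1 (1 higher and 2 lower at an unadjusted p under 0.05 by limma, 0 by the methods' t-test with adjustment), and 4 as higher and 2 as lower with siALKBH5#3, of which the methods' t-test passed 0. EZH2, the methyltransferase of a Polycomb complex, rose with siALKBH5#3 by 0.72 ± 0.14 (adjusted p = 0.00457).

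**Figure D4:**
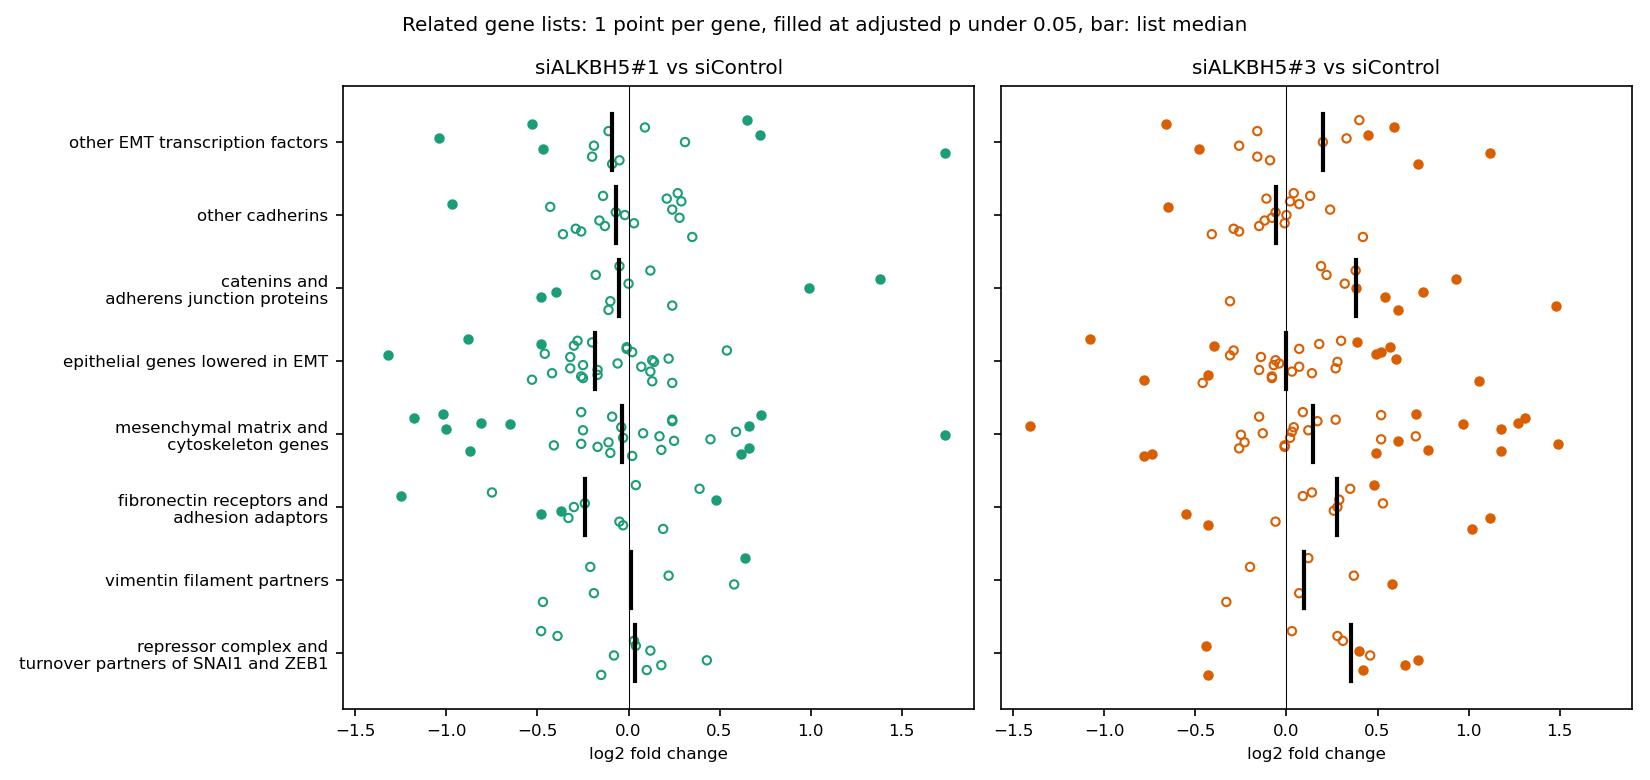
Log2 fold change (horizontal axis) of each gene in the 8 related lists with siALKBH5#1 and with siALKBH5#3 against siControl. Filled points passed at an adjusted p under 0.05 and black bars are list medians. The catenin list has its median at -0.05 with siALKBH5#1 and 0.38 with siALKBH5#3, and the epithelial list at -0.19 and -0.01.

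Markers of other cell types were read beside the mesenchymal genes. Of 9 fibroblast markers 8 were measured, and none passed in any comparison (limma, with 0, 1 or 2 at an unadjusted p under 0.05 in each, and 0 by the methods' t-test with adjustment). Over all clusters 8.07% passed with siALKBH5#1, 15.8% with siALKBH5#3 and 19.1% between the siRNAs, so 0 of 8 is not far from these shares. DCN, PDGFRB, FAP and THY1 were at or below the olfactory guide on all arrays, whereas COL1A2 was above it on 9, PDGFRA on 7, COL1A1 on 5 and LUM on 2. The summed intensity of the fibroblast markers was 356 to 431 with siALKBH5#1, 389 to 462 with siALKBH5#3 and 415 to 456 with siControl, so the ranges of the siALKBH5#3 arrays, on which FN1, VIM and COL5A1 were high, and of the siControl arrays overlapped. COL1A2, the brightest of them, averaged 155, 203 and 204 in these groups. Since intensities cannot be compared between genes, such sums mostly follow the brightest genes and say little of the rest of a list. The 5 endothelial markers summed to 209 to 239 with siALKBH5#1, 244 to 273 with siALKBH5#3 and 300 to 393 with siControl, with PECAM1 and VWF above the guide on all 9 arrays, CDH5 on 5, and KDR and TEK on none. PECAM1 passed as lower with each siRNA (-0.88 ± 0.15 on the log2 scale with both, SE, adjusted p = 0.00408 with siALKBH5#1 and 0.00204 with siALKBH5#3, limma) and CDH5 with siALKBH5#1 only. Among 5 immune markers measured, PTPRC and CD3E were above the guide on 2 and 1 arrays and CD14 on none, while CD68, a lysosomal protein also made outside the immune system, and LST1 were above it on all 9. With siALKBH5#1, CD68 rose by 0.68 ± 0.12 on the log2 scale (adjusted p = 0.00565), and CD14 passed as lower (adjusted p = 0.0328) at a signal within the guide. By the methods' t-test with adjustment, 0 endothelial and 0 immune markers passed with siALKBH5#1. With siALKBH5#3, 0 endothelial markers and 1 immune marker, as higher, passed that test. The adjustment is not part of the study's own criterion, which sets thresholds on the unadjusted p and the fold. By that criterion the paper lists PECAM1 as lowered with both siRNAs. The part of these markers in the results was not tested.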

How the data were processed

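RNA of PC9 cells was measured on Clariom S arrays. The authors deposited 1 intensity per transcript cluster and array on a linear scale, and their processing notes list Affymetrix Expression Console, RMA and hg38. The methods name another analysis tool for normalization, so the step that set the final scale is not settled. RMA equalises the distributions of arrays, which hides any shift in total RNA and shrinks differences of dim clusters. No arrays were pooled in the deposited values. Groups and replicate numbers came from the sample titles.

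Of 24351 entries, 2903 controls were left out. The deposited intensities of 21448 clusters were taken to log2 with no pseudocount, and symbols came from the array annotation. With limma 3.58.1 in R 4.3.3, 1 mean per group was fitted to all 9 arrays (6 residual degrees of freedom), two-sided moderated tests were made for 3 comparisons, and p-values were adjusted by Benjamini-Hochberg over all clusters, with a call at an adjusted p under 0.05. The number of arrays limits the precision. On simulated data for siALKBH5#3 against siControl with 21448 clusters, 200 of them changed, the fit recovered 39.2% of 1.5-fold and 96.4% of 2-fold changes. In the data 3381 clusters passed this comparison, so the setting differed and these shares need not hold for the data.

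Every member was named. Genes of the lists could be named if they were among the 3 largest changes that passed in any comparison, or the 2 brightest where none passed, and not all are printed. The members and lists were chosen with earlier results of these data known. The alternatives were another prior, other scalings, an added offset of 32, a filter on dim clusters, the compared groups alone, a replicate block, the methods' t-test and each array left out. Leaving out 1 array left 2 in its group. The adjustment of the methods' t-test was added here, since the methods state thresholds on p and fold only.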

Additional observations from a re-analysis of the deposited data

Results flagged for a closer look

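Each gene here was picked out because its change differed between the siRNAs by a direct test of siALKBH5#3 against siALKBH5#1 (limma, adjusted p under 0.05, 3 arrays each), and values are log2 differences. Among the members these were FN1 (3.13), VIM (1.55), CDH1 (1.16), CDH2 (1.09) and CDH3 (0.52). ALKBH5 itself differed by -1.45, but 2 of its 3 siALKBH5#3 values were within the olfactory receptor guide to dim signal, so the size is uncertain, and the call was lost under the methods' t-test with adjustment (adjusted p = 0.0543).

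The genes of the lists given next are up to 3 per list with the largest differences that passed. Of the matrix and cytoskeleton genes these were THBS1 (2.50), MYL9 (2.19) and TAGLN (2.08). Among adhesion receptors, junction genes and other epithelial genes they were ITGA5 (1.45), ITGB6 (1.34), CTNNA1 (1.24), LIMA1 (1.15), CDH5 (1.04), JUP (1.02), MUC1 (1.02), OCLN (0.94), CLDN1 (0.93) and ITGB8 (0.89). CDH5 lay below the guide on all siALKBH5#1 arrays, so the size of its difference was not determined. Among transcription factors and repressor partners they were SOX4 (1.37), ETS1 (0.81), RCOR1 (0.67), SUZ12 (0.51), HDAC1 (-0.48) and HMGA2 (-0.62), and the filament gene SYNM gave -0.53. Leaving out 1 array ended the call of CDH3 (2 of 9 arrays), ITGB8 (4), SYNM (4), SUZ12 (5) and HDAC1 (1), with adjusted p up to 0.0711, 0.0877, 0.118, 0.0903 and 0.0533. Other named genes that passed the same test were COL5A1 (1.75), TPM1 (1.73), FERMT2 (0.84), SPINT1 (0.66) and CTBP2 (0.47), which were higher with siALKBH5#3, and S100A4 (-2.07), LOX (-1.99), NECTIN1 (-0.61) and NECTIN3 (-0.45), which were lower. The calls of CTBP2 and NECTIN3 were each lost in 5 of the 9 fits with 1 array left out, with adjusted p up to 0.112 and 0.129.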

How the results depend on the processing

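FN1 and VIM with siALKBH5#3 passed against siControl and against siALKBH5#1 under every alternative run, and kept their direction. The count of members that passed with siALKBH5#1 was 2, and it was 1 when only these groups entered the fit, 0 under the methods' t-test in both forms and 0 to 1 with 1 array left out. With siALKBH5#3 it was 5, and it was 2 under both forms of the t-test (FN1 and VIM) and 3 to 4 with 1 array left out, and between the siRNAs it was 5, 3 under both forms, and 4 to 5. Over all clusters, 1731 passed with siALKBH5#1, 2604 with an intensity trend and robust prior, 324 under the t-test with Benjamini-Hochberg adjustment, 703 at the thresholds of the methods (p under 0.01 and fold over 1.5), and 1037 to 1723 with 1 array left out. With siALKBH5#3, 3381 passed, against 1302 and 1414 under the t-test, and between the siRNAs 4097, against 2672 and 2028.

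With the replicate number as a block, 1 member passed with siALKBH5#1, since TWIST1 was lost (adjusted p = 0.0669), SNAI2 was lost with siALKBH5#3 (adjusted p = 0.066), and 1430, 2994 and 3774 clusters passed. Arrays of the same number deviated from their group means with correlations of -0.147 to 0.123, and arrays of other numbers with -0.176 to 0.172. The labels do not say whether a number marks a shared culture or batch, and so few arrays per group cannot settle it.

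The sign turned for changes near 0 that passed nowhere. CDH3 with siALKBH5#1 was -0.04 under quantile normalization, -0.01 under median scaling and -0.06 to 0.08 with 1 array left out. ZEB1 with siALKBH5#1 was -0.00 with 32 units added, and -0.22 to 0.34 with 1 array left out, and with siALKBH5#3 it was -0.55 to 0.00. With 1 array left out, VIM with siALKBH5#1 was -0.16 to 0.02 and SNAI1 between the siRNAs -0.12 to 0.06. ZEB1 and ZEB2 gave no value with dim clusters left out. The causes were not tested.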
